A study of Macaca mulatta with 6 samples.

Results

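The genes described here are those of glycolysis and a set of genes known to respond to low oxygen, 34 genes in all, given by symbol. In the deposited table of RF/6A cells 32 of the 34 were found by symbol, of 24932 genes in all, and their transcripts were summed per symbol. They comprised 15 glycolytic enzymes, 3 enzymes that regulate glycolysis, 4 glucose and lactate transporters, 9 other hypoxia targets and HIF1A, the oxygen-sensitive subunit of hypoxia-inducible factor. GAPDH and ENO1 had no row under those symbols and are not analysed here by symbol. TPI1 was listed at 0 in all 6 libraries and PKM2, the older symbol of PKM, stayed under 1 FPKM, so that 30 members entered the test.

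RF/6A is a rhesus macaque line that the labels call choroidal endothelial. The cells were grown to confluence on porous culture inserts and then held for 4 hours in 50% normal human serum (3 libraries) or 50% heat-inactivated human serum (3 libraries), and polyadenylated RNA was sequenced. All cells thus saw human serum, and the groups differ in whether the serum had been heated. Heating destroys complement, the serum proteins that can assemble a pore in cell membranes, but it also alters other serum components, and no library had complement removed in another way, so these cannot be told apart. Whether the replicates come from separate cultures is not said in the labels, and the p-values cover no more than the differences among these 6 libraries, part of which can be technical.

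Glycolysis splits glucose into pyruvate and yields ATP without oxygen, and lactate dehydrogenase turns pyruvate into lactate that leaves the cell through monocarboxylate transporters. Endothelial cells are known to draw much of their ATP from this route. When oxygen is low, prolyl hydroxylases no longer mark HIF-1α for destruction, and the factor then raises the transcription of many glycolytic genes and of genes for pH control, mitochondrial turnover, collagen hydroxylation and histone demethylation.

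Levels are given in FPKM, in which the fragments of a transcript are divided by its length and by the depth of the library. This allows levels of different genes to be set side by side. Low values in replicates 2 and 3 came in whole fragments and gave depths between 14700000 and 17900000 fragments. Replicate 1 of either treatment was off this grid, and the pair stood apart from the other 4 libraries on the second principal component (13.2% of the variance). The first component (61.1%) separated the treatments. Of 10 endothelial markers 6 were under 1 FPKM on average, CDH5 being listed at 0 in all 3 heat-inactivated serum libraries and averaging 0.0110 FPKM in normal serum, so the marker genes do not establish the labelled cell type. The 4 endothelial markers tested were higher in normal serum. ENG lost its call as higher under 4 of 18 alternatives, among them rescaling to the same total (limma adjusted p = 0.325). Markers that were not tested went both ways, with VWF higher in normal serum (1.05 against 0.172 FPKM) and KDR lower (0.105 against 0.370 FPKM). The summed level of the 10 was between 97.8 and 104 FPKM in normal serum, against 73.6 to 75.7 FPKM in heat-inactivated serum. ENG alone made up most of that sum, averaging 74.2 FPKM in normal serum and 61.2 FPKM in heat-inactivated serum. The 8 mural and fibroblast markers, 2 of them higher and 6 lower, summed to between 4604 and 4859 FPKM in normal serum and between 7862 and 8360 FPKM in heat-inactivated serum. The part of either marker list in the results on glycolysis was not tested, and in bulk RNA fewer cells of a type and less RNA per cell cannot be told apart.

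The glycolytic enzymes and the hypoxia targets outside glycolysis differed in their counts. In limma's test of log2(FPKM + 1) over 11818 genes, 27.8% of all genes were higher and 26.1% lower in normal serum at an adjusted p under 0.05, 54.0% in either direction. Of the 30 members tested 14 were higher, 7 lower and 9 did not pass. Of 13 glycolytic enzymes tested 8 were higher (61.5%), 2 were lower (15.4%) and 3 did not pass, with a median log2 change of 0.33. Of 9 other hypoxia targets 1 was higher (11.1%), 3 were lower (33.3%) and 5 did not pass, with a median of -0.024 beside 0.011 for all genes tested. The difference between the lists was not itself tested.

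These counts depend on level and on scaling. Of the 1079 genes averaging 100 FPKM or more, 50.6% were higher and 12.5% lower, with a median log2 change of 0.23. Of the 6 glycolytic enzymes at that level 5 were higher and 0 lower, and of the 3 other hypoxia targets at that level 0 were higher and 1, BNIP3, was lower. The summed FPKM of the libraries was unequal. Heat-inactivated serum replicates 1 and 2 had 852828 and 867794, and replicate 3 had 1007949, against 980877 to 1016474 in normal serum. Rescaling all libraries to the same total moved the median of all genes to -0.12. It left 5 glycolytic enzymes higher with a list median of 0.18. Rescaling by median ratio instead ended 0 of the 21 member calls, with 3224 of all genes higher and 3164 lower. Quantile normalization left 4 higher and put 3 lower, with a list median of 0.084, and put 5 of the other hypoxia targets lower. Without heat-inactivated serum replicate 3, only 1 of the other hypoxia targets was lower and 1 higher, and 9 glycolytic enzymes were higher. With replicates 2 and 3 alone, 7 glycolytic enzymes were higher and 2 lower, and 1 other hypoxia target was higher and 3 lower.

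**Figure D1:**
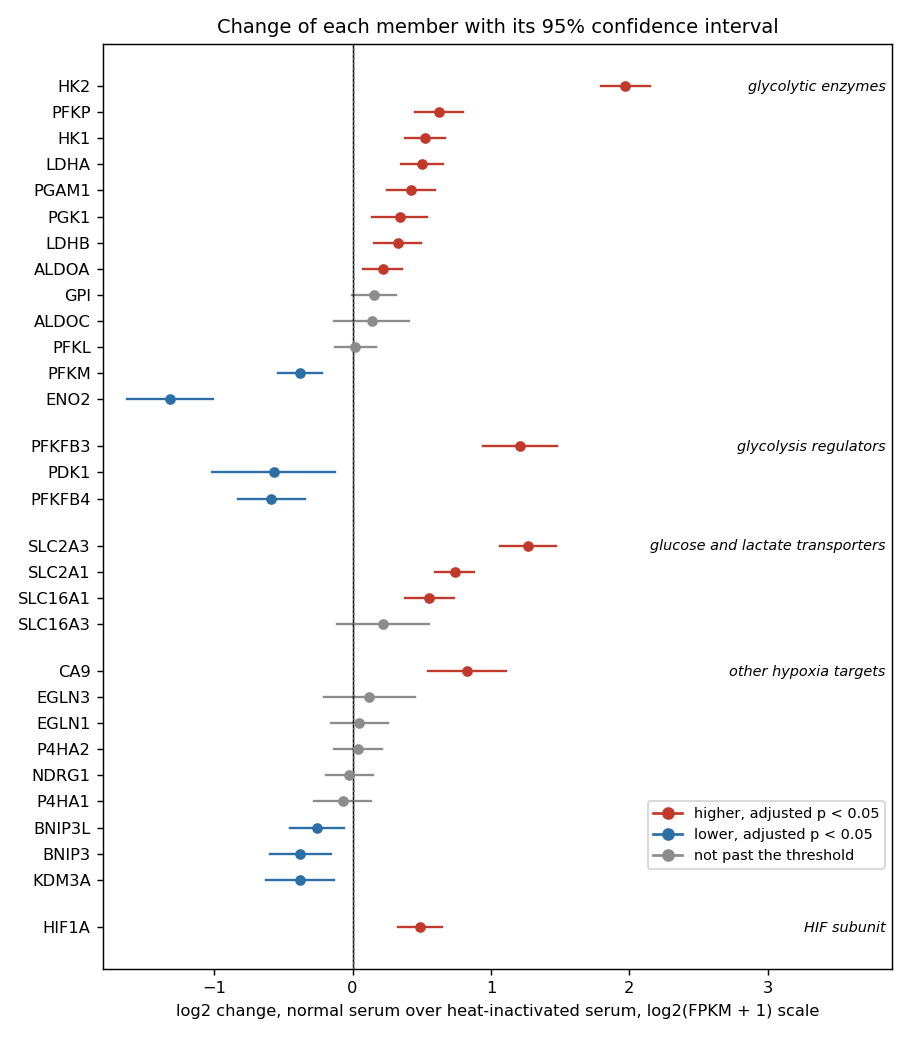
Log2 change of each of the 30 tested members, normal serum over heat-inactivated serum on the log2(FPKM + 1) scale, with 95% confidence intervals from limma, grouped by role. HK2 stands at 1.97 and ENO2 at -1.32, and 9 members, 3 of them glycolytic enzymes, did not pass the test.

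Hexokinases trap glucose in the cell by phosphorylating it. HK2, the inducible form, had 34.2, 37.1 and 37.7 FPKM in normal serum, against 7.80, 8.88 and 8.92 FPKM in heat-inactivated serum. The groups were far apart, with every normal serum library well above the highest heat-inactivated one. The ratio of means was 4.26-fold, with a log2 change of 1.97 (95% interval 1.79 to 2.15, limma adjusted p = 3.36e-06). HK1, the form most cells express at a steady level, had 61.1, 60.7 and 57.2 FPKM in normal serum, against 38.9, 41.6 and 43.0 FPKM in heat-inactivated serum. The groups were separate and the rise was 1.45-fold (log2 0.52, limma adjusted p = 4.28e-04). Both HK2 transcripts moved the same way, the one of 5274 bases averaging 31.4 ± 2.40 FPKM in normal serum and 6.47 ± 0.624 FPKM in heat-inactivated serum (SD, n = 3 each), and the one of 3623 bases averaging 4.92 ± 0.874 FPKM and 2.06 ± 0.356 FPKM in the same order.

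The next steps rearrange and again phosphorylate the sugar. GPI, which turns glucose 6-phosphate into fructose 6-phosphate, had 302, 297 and 285 FPKM in normal serum, against 252, 255 and 288 FPKM in heat-inactivated serum. Heat-inactivated replicate 3 lay above a normal serum library, and the log2 difference of 0.15 did not pass (95% interval -0.0052 to 0.31, limma adjusted p = 0.0918). Without that library it was 0.22 (limma adjusted p = 0.0353), and under quantile normalization it was -0.15.

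Phosphofructokinase commits fructose 6-phosphate to glycolysis, and its 3 subunit genes took 3 courses. PFKP, the platelet-type subunit, had 79.2, 78.3 and 74.9 FPKM in normal serum, against 46.2, 49.3 and 54.8 FPKM in heat-inactivated serum. PFKM, the muscle-type subunit, had 32.5, 37.2 and 34.3 FPKM in normal serum, against 44.0, 45.9 and 46.1 FPKM in heat-inactivated serum. Neither gene's groups overlapped: PFKP rose 1.55-fold (log2 0.62, limma adjusted p = 4.15e-04), and PFKM fell to 0.765 of its level (log2 -0.38, limma adjusted p = 0.00256). PFKL, the liver-type subunit, had 91.8, 87.9 and 81.8 FPKM in normal serum and 83.2, 85.2 and 89.3 FPKM in heat-inactivated serum. Its groups overlapped and the log2 difference of 0.020 had an interval from -0.13 to 0.17 (limma adjusted p = 0.81). PFKL changed sign with the scaling, at -0.12 after rescaling to the same total and -0.18 (limma adjusted p = 0.0368) under quantile normalization.

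Aldolase cleaves the 6-carbon sugar. ALDOA, the most abundant enzyme found by symbol, had 798, 788 and 738 FPKM in normal serum, against 660.4, 641 and 696 FPKM in heat-inactivated serum. The groups were separate by a narrow margin and the rise was 1.16-fold (log2 0.22, limma adjusted p = 0.0183). That call was lost under 7 of 18 alternatives, among them rescaling to the same total (0.074, limma adjusted p = 0.496) and the replicates 2 and 3 alone (adjusted p = 0.0843), and the sign turned under quantile normalization (-0.017). It was also lost without heat-inactivated serum replicate 2 (limma adjusted p = 0.0729), without normal serum replicate 1 (0.057) and without normal serum replicate 2 (0.0601). Most of ALDOA was a transcript of 1511 bases at 687 ± 40.7 FPKM in normal serum and 617 ± 30.6 FPKM in heat-inactivated serum, while a transcript of 1360 bases averaged 61.5 ± 25.3 FPKM in normal serum and 23.6 ± 9.25 FPKM in heat-inactivated serum (SD, n = 3 each). ALDOC, the brain-type aldolase, was much lower, at 19.0, 14.4 and 15.1 FPKM in normal serum and 14.5, 13.2 and 15.9 FPKM in heat-inactivated serum. Its groups overlapped and it did not pass (log2 0.14, interval -0.13 to 0.41, limma adjusted p = 0.34), and the difference was 0.023 without normal serum replicate 1.

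The ATP-yielding stretch of the pathway begins after the triose phosphates. PGK1, which makes ATP from 1,3-bisphosphoglycerate, had 253, 284 and 263 FPKM in normal serum, against 197, 200.4 and 235 FPKM in heat-inactivated serum. PGAM1, which moves the phosphate of 3-phosphoglycerate, had 459, 505 and 497 FPKM in normal serum, against 346, 349.7 and 396 FPKM in heat-inactivated serum. Both genes had separate groups, with heat-inactivated replicate 3 nearest to the normal serum libraries. PGK1 rose 1.27-fold (log2 0.34, limma adjusted p = 0.0116), a call lost on rescaling to the same total (0.20, limma adjusted p = 0.0765) and under quantile normalization (0.042, adjusted p = 0.661). PGAM1 rose 1.34-fold (log2 0.42, limma adjusted p = 0.00237), a call lost under quantile normalization (0.13, adjusted p = 0.187). Genomes hold near-identical copies of PGK1, PGAM1, LDHA and LDHB, and fragments could be split among them, so their levels are uncertain to that extent.

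ENO2, the neuron-type enolase, went the other way. It had 15.5, 13.4 and 20.1 FPKM in normal serum, against 40.8, 40.2 and 44.1 FPKM in heat-inactivated serum. Every normal serum library was far under the lowest heat-inactivated one, and ENO2 fell to 0.392 of its level (log2 -1.32, interval -1.63 to -1.01, limma adjusted p = 2.09e-04). Its 2 transcripts stood at 0.390 and 0.395 of their levels in heat-inactivated serum.

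Lactate dehydrogenase interconverts pyruvate and lactate. LDHA, the subunit favouring lactate formation, had 554, 585 and 532 FPKM in normal serum, against 380.1, 382 and 418 FPKM in heat-inactivated serum. LDHB, the heart-type subunit, had 398, 413 and 389 FPKM in normal serum, against 289, 333 and 336 FPKM in heat-inactivated serum. The groups of both were separate. LDHA rose 1.42-fold (log2 0.50, limma adjusted p = 6.40e-04). LDHB rose 1.25-fold (log2 0.33, limma adjusted p = 0.00709), a call lost on rescaling to the same total (0.18, adjusted p = 0.115) and under quantile normalization (0.084, adjusted p = 0.287). Its sum includes a transcript on chromosome 8, at 5.79 FPKM in normal serum and 5.97 FPKM in heat-inactivated serum, while the others lie on chromosome 11.

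**Figure D2:**
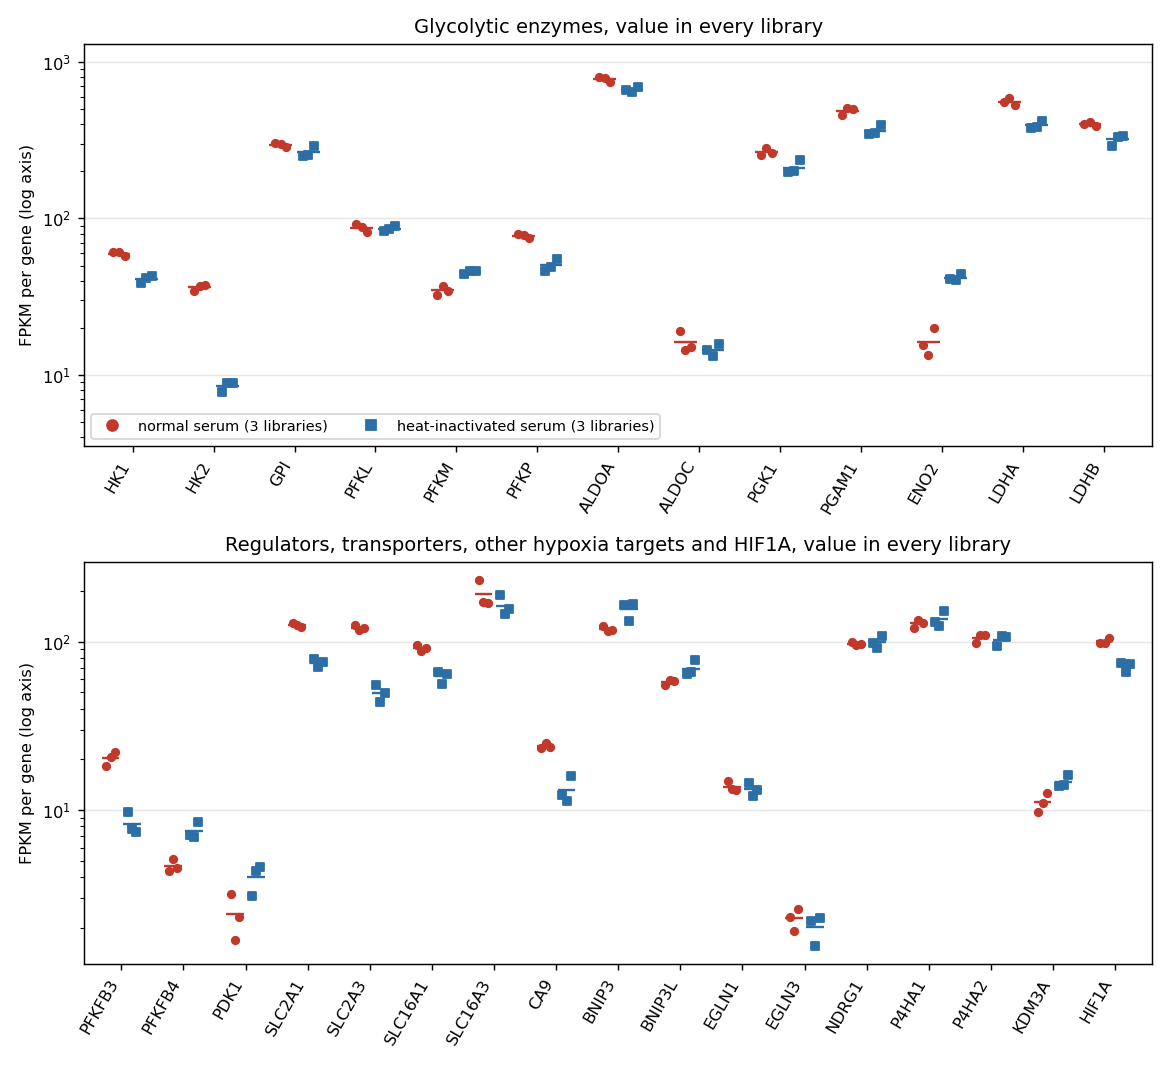
FPKM of the 30 tested members in every library on a log axis, glycolytic enzymes above and the other members in the lower panel, with bars at the mean of the 3 libraries of each treatment. Normal serum libraries lie above heat-inactivated ones for HK1, HK2, PFKP, ALDOA, PGK1, PGAM1, LDHA and LDHB and under them for PFKM and ENO2.

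The 3 most abundant entries described as glycolytic enzymes but not named by a member's symbol had more summed FPKM than the enzymes found by symbol. ENO1 is in neither sum. These entries were looked for after the values had been seen, because the symbols GAPDH, TPI1 and PKM2 led to no row or to nearly silent ones. MMU.3145, described as glyceraldehyde-3-phosphate dehydrogenase on chromosome 11, had 3495, 3366 and 3064 FPKM in normal serum, against 1884, 1972 and 2021 FPKM in heat-inactivated serum. It is 1 of 6 entries with that description, 4 of them at 0 in every library. Fragments could be split among such copies, so its level is uncertain to that extent. MMU.9617, described as pyruvate kinase on chromosome 7, had 1670.0, 1852 and 1699 FPKM in normal serum, against 868, 995 and 1017 FPKM in heat-inactivated serum. MMU.12291, described as triosephosphate isomerase on chromosome 11, had 916, 957 and 872 FPKM in normal serum, against 561, 600.0 and 676 FPKM in heat-inactivated serum. The groups of all 3 entries were separate. MMU.3145 rose 1.69-fold (log2 0.75, limma adjusted p = 1.39e-04), MMU.9617 rose 1.81-fold (log2 0.86, adjusted p = 1.41e-04) and MMU.12291 rose 1.49-fold (log2 0.58, adjusted p = 8.44e-04). All 3 calls held under each of the 18 alternatives. The same search gave 6 entries described as L-lactate dehydrogenase, 3 of them tested, with smaller changes. MMU.4966 rose 1.21-fold (log2 0.26, limma adjusted p = 0.0316), a call lost under 6 of 18 alternatives. An entry on chromosome 17 rose 1.43-fold (log2 0.43, adjusted p = 0.0166), and one on chromosome 18 did not pass (log2 0.17, adjusted p = 0.223).

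The row under the symbol PKM2, on chromosome 13, had 0.616, 0.693 and 0.859 FPKM in normal serum and 0.575, 0.456 and 0.523 FPKM in heat-inactivated serum. It was below the level needed for the test, and copies of this gene could share its fragments. Together MMU.3145, MMU.9617 and MMU.12291 summed to 5964 ± 289 FPKM in normal serum and 3531 ± 203 FPKM in heat-inactivated serum (SD, n = 3 each), a ratio of 1.69. The 15 enzymes found by symbol summed to 3108 ± 86.9 FPKM in normal serum and 2506 ± 145 FPKM in heat-inactivated serum, a ratio of 1.24.

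**Figure D3:**
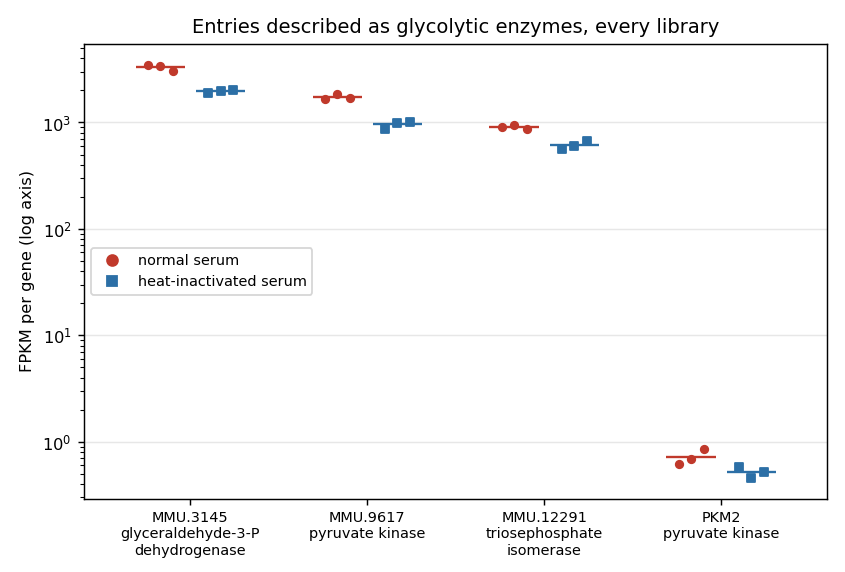
FPKM in every library on a log axis for the 3 abundant entries described as glycolytic enzymes and for the row named PKM2, with bars at the mean of 3 libraries. In each abundant entry the 3 normal serum libraries lie above the 3 heat-inactivated serum libraries, and PKM2 lies under 1 FPKM.

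The enzymes that set the pace of glycolysis split in direction. PFKFB3, the bifunctional enzyme whose product fructose 2,6-bisphosphate activates phosphofructokinase, had 18.4, 20.6 and 22.3 FPKM in normal serum, against 9.74, 7.74 and 7.42 FPKM in heat-inactivated serum. PFKFB4, an isoenzyme of it, had 4.35, 5.15 and 4.52 FPKM in normal serum, against 7.15, 6.89 and 8.53 FPKM in heat-inactivated serum. The groups of both were separate. PFKFB3 rose 2.46-fold (log2 1.21, interval 0.94 to 1.47, limma adjusted p = 1.53e-04) and PFKFB4 fell to 0.621 of its level (log2 -0.59, adjusted p = 0.00242). The main PFKFB3 transcript, of 2851 bases, averaged 20.1 ± 1.59 FPKM in normal serum and 7.26 ± 0.248 FPKM in heat-inactivated serum (SD, n = 3 each).

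PDK1 is a kinase that switches off pyruvate dehydrogenase and so holds pyruvate back from oxidation in the mitochondria. It had 3.18, 1.70 and 2.33 FPKM in normal serum, against 3.10, 4.37 and 4.59 FPKM in heat-inactivated serum. The groups overlapped, since normal serum replicate 1 lay above heat-inactivated replicate 1. The fall to 0.598 of its level passed the test (log2 -0.57, interval -1.01 to -0.13, limma adjusted p = 0.0358), but the call was lost under 7 of 17 alternatives. These included leaving out normal serum replicate 2 (adjusted p = 0.099) or 3 (0.0833) and heat-inactivated serum replicate 2 (0.102) or 3 (0.108), with limma in each case. Only about 24 and 39 fragments lay behind the values of normal serum replicates 2 and 3, and 69 and 63 behind those of heat-inactivated serum replicates 2 and 3.

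The glucose carriers rose with the hexokinases. SLC2A1 (GLUT1), the basal glucose transporter, had 129.9, 125 and 123 FPKM in normal serum, against 78.6, 71.0 and 75.8 FPKM in heat-inactivated serum. SLC2A3 (GLUT3), a carrier of high affinity for glucose, had 125, 118 and 119.7 FPKM in normal serum, against 55.3, 44.1 and 49.8 FPKM in heat-inactivated serum. Both pairs of groups were well separated. SLC2A1 rose 1.68-fold (log2 0.74, limma adjusted p = 7.92e-05) and SLC2A3 rose 2.43-fold (log2 1.27, interval 1.07 to 1.47, adjusted p = 3.75e-05), so that in normal serum both stood at about the same mean FPKM, 126 ± 3.58 for SLC2A1 and 121 ± 3.67 for SLC2A3 (SD, n = 3 each).

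SLC16A1 (MCT1), which carries lactate and pyruvate with a proton in either direction, had 95.7, 88.4 and 91.2 FPKM in normal serum, against 66.0, 56.1 and 64.5 FPKM in heat-inactivated serum. Its groups were separate and it rose 1.47-fold (log2 0.56, limma adjusted p = 7.92e-04). SLC16A3 (MCT4), the lactate exporter of glycolytic cells, had 233, 172 and 170.1 FPKM in normal serum, against 188, 147 and 156 FPKM in heat-inactivated serum. Replicate 1 was the highest library of either treatment, the groups overlapped, and the log2 difference of 0.22 did not pass (interval -0.11 to 0.55, limma adjusted p = 0.224). With the replicate number as a block its adjusted p was 0.0183, and under quantile normalization the difference was -0.023. The difference was 0.074 without normal serum replicate 1 and 0.33 without heat-inactivated serum replicate 1, and neither passed.

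The balance within families can be read from shares of their summed FPKM, which no linear scaling of whole libraries affects. The exact two-sided permutation test over 6 libraries cannot go below p = 0.1, so none of the 7 shares could pass on its own. HK2 made up 37.9% ± 1.94 of HK1 and HK2 in normal serum and 17.2% ± 0.452 in heat-inactivated serum (SD, n = 3 each). PFKP made up 38.9% ± 0.351 of the phosphofructokinase subunits in normal serum and 27.6% ± 1.10 in heat-inactivated serum. PFKFB3 made up 81.3% ± 1.63 of PFKFB3 and PFKFB4 in normal serum and 52.4% ± 5.58 in heat-inactivated serum. These 3 shares, like those of SLC2A3 and LDHA, did not overlap between treatments (exact permutation p = 0.1 each, 0.14 adjusted over 7 shares). How often shares of other gene families separate was not examined. Of all single genes tested 54.0% were called in either direction by limma, which is a different measure. How many of all genes had separate groups is not given here. Separation was therefore not shown to mark out these families.

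SLC2A3 made up 48.9% ± 0.456 of SLC2A1 and SLC2A3 in normal serum and 39.8% ± 1.50 in heat-inactivated serum. LDHA differed by less, at 58.2% ± 0.453 of LDHA and LDHB in normal serum and 55.2% ± 1.70 in heat-inactivated serum. ALDOC remained a small part of the aldolases, 2.04% ± 0.268 in normal serum and 2.13% ± 0.103 in heat-inactivated serum, with overlapping groups (exact permutation p = 0.6). SLC16A3 made up 67.4% ± 3.07 of SLC16A1 and SLC16A3 in normal serum and 72.4% ± 1.67 in heat-inactivated serum, and these groups overlapped (exact permutation p = 0.2).

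**Figure D4:**
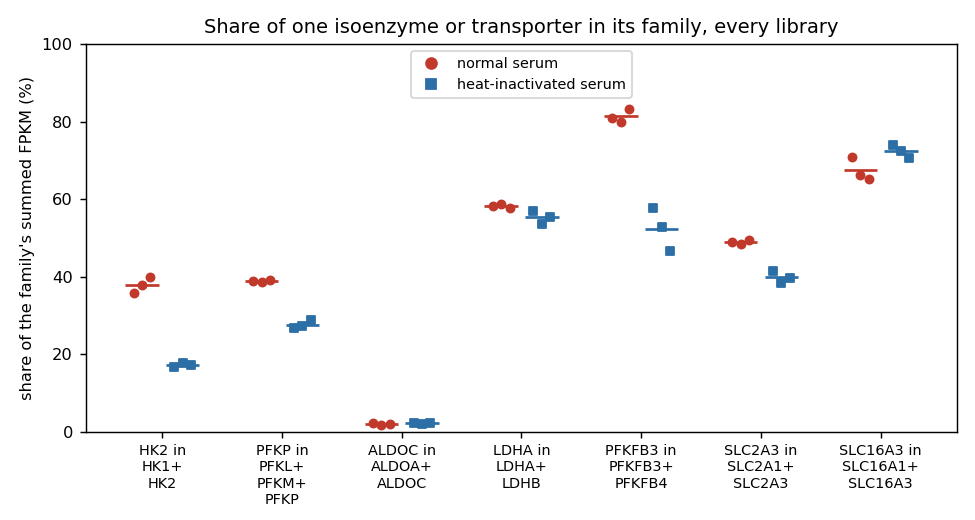
Share of a gene in the summed FPKM of its family, in percent, for every library, with bars at the mean of 3 libraries of each treatment. The PFKFB3 share differs most, by 29.0 percentage points, and the ALDOC share least.

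Among the hypoxia targets outside glycolysis, CA9, a membrane carbonic anhydrase that helps control pH and is a widely used marker of HIF activity, was the only member higher. It had 23.2, 25.0 and 23.5 FPKM in normal serum, against 12.3, 11.3 and 16.0 FPKM in heat-inactivated serum. The groups were separate and CA9 rose 1.81-fold (log2 0.83, interval 0.55 to 1.11, limma adjusted p = 0.00101), under all 18 alternatives.

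BNIP3 and BNIP3L are related receptors on the mitochondrial surface that mark mitochondria for autophagy. BNIP3 had 124, 116 and 117 FPKM in normal serum, against 165, 133 and 168 FPKM in heat-inactivated serum. BNIP3L had 55.6, 59.0 and 58.2 FPKM in normal serum, against 64.0, 65.9 and 77.7 FPKM in heat-inactivated serum. The normal serum libraries lay close together and under all heat-inactivated ones for both genes. BNIP3 fell to 0.765 of its level (log2 -0.38, limma adjusted p = 0.0119), a call that held under all alternatives. BNIP3L fell to 0.832 of its level (log2 -0.26, limma adjusted p = 0.0331), a call lost under 5 alternatives. For BNIP3L the limma adjusted p was 0.0828 without heat-inactivated serum replicate 3, 0.0851, 0.0630 and 0.0688 without normal serum replicate 1, 2 or 3, and 0.664 with its highest transcript alone (log2 -0.075).

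KDM3A, a histone H3 lysine demethylase, had 9.75, 11.0 and 12.6 FPKM in normal serum, against 13.9, 14.2 and 16.1 FPKM in heat-inactivated serum. Its groups were separate and it fell to 0.755 of its level (log2 -0.38, limma adjusted p = 0.0172), a call lost without heat-inactivated serum replicate 3 (adjusted p = 0.0603).

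The other 5 targets did not pass, and the groups of each overlapped. EGLN1, the prolyl hydroxylase PHD2 that marks HIF-1α, averaged 13.8 ± 1.01 FPKM in normal serum and 13.3 ± 1.20 FPKM in heat-inactivated serum, and its log2 difference of 0.049 (interval -0.15 to 0.25) was -0.086 after rescaling to the same total. EGLN3, the hydroxylase PHD3, averaged 2.28 ± 0.348 FPKM in normal serum and 2.02 ± 0.393 FPKM in heat-inactivated serum (log2 0.12, interval -0.21 to 0.45), a difference that was 0.0095 without heat-inactivated serum replicate 2 and 0.21 without normal serum replicate 2. NDRG1, a stress-response gene widely used as a hypoxia marker, averaged 97.3 ± 1.87 FPKM in normal serum and 99.2 ± 8.68 FPKM in heat-inactivated serum (log2 -0.024, interval -0.19 to 0.15).

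P4HA1 and P4HA2 encode the catalytic subunits of collagen prolyl 4-hydroxylase. P4HA1 averaged 129 ± 7.02 FPKM in normal serum and 136 ± 14.6 FPKM in heat-inactivated serum (log2 -0.072, interval -0.28 to 0.13). P4HA2 averaged 106 ± 6.01 FPKM in normal serum and 103 ± 7.34 FPKM in heat-inactivated serum (log2 0.039, interval -0.14 to 0.21), with -0.10 after rescaling to the same total and -0.15 under quantile normalization. Under quantile normalization NDRG1 (log2 -0.21, limma adjusted p = 0.0329) and P4HA1 (-0.30, adjusted p = 0.0168) passed as lower.

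HIF1A had 97.9, 98.0 and 106 FPKM in normal serum, against 75.0, 66.4 and 73.2 FPKM in heat-inactivated serum. The groups were separate and its RNA rose 1.41-fold (log2 0.49, interval 0.33 to 0.65, limma adjusted p = 8.82e-04), mostly in the transcript of 3922 bases, which averaged 89.8 ± 2.55 FPKM in normal serum and 62.7 ± 3.67 FPKM in heat-inactivated serum (SD, n = 3 each). HIF-1α is controlled chiefly as a protein, which was not measured.

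In the authors' deposited table of transcript comparisons 7 of the 71 member transcripts carried all 3 of the authors' marks for level, fold change and q-value, against 1143 of all 44605 transcripts. The 7 belonged to 4 genes: 2 each to HK2, ENO2 and SLC2A3, and 1 to PFKFB3. The 2 counts have unlike bases, since 16522 of all transcripts and 7 of the member transcripts were at 0 in every library. Main transcripts of further members carried the marks for level and q-value and lacked only that for fold change. Among these were HK1, PFKP, PGAM1, LDHA, SLC2A1, SLC16A1, CA9 and HIF1A, which were higher, and PFKM, PFKFB4 and BNIP3, which were lower.

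The counts in pathways next to the members stand beside 27.8% of all genes higher and 26.1% lower. Several lists were near these shares, and no list was tested as a set. Of 8 tested genes in the rest of glycolysis and gluconeogenesis, out of 23 found, 4 were higher (50.0%) and 2 lower (25.0%), with a median log2 of 0.16. BPGM, which makes 2,3-bisphosphoglycerate and can also act as a mutase, averaged 53.7 ± 1.53 FPKM in normal serum and 8.59 ± 0.572 FPKM in heat-inactivated serum (6.25-fold, limma adjusted p = 8.56e-07), a larger fold than any member. C12orf5 (TIGAR), a phosphatase that lowers fructose 2,6-bisphosphate, averaged 15.9 ± 0.985 FPKM in normal serum and 5.72 ± 0.641 FPKM in heat-inactivated serum (2.79-fold, adjusted p = 3.75e-05). PCK2, the mitochondrial enzyme of gluconeogenesis, fell to 8.30 ± 0.840 FPKM in normal serum, against 15.3 ± 1.40 FPKM in heat-inactivated serum (limma adjusted p = 4.07e-04).

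Of 8 tested genes in the rest of sugar and lactate transport 2 were higher (25.0%) and 4 lower (50.0%), with a median log2 of -0.13. BSG, the chaperone of the lactate carriers, averaged 167 ± 12.8 FPKM in normal serum and 113 ± 2.00 FPKM in heat-inactivated serum (1.48-fold, limma adjusted p = 4.87e-04). SLC2A10, a facilitative sugar transporter, averaged 8.81 ± 0.906 FPKM in normal serum and 22.2 ± 2.99 FPKM in heat-inactivated serum, 0.397 of that level (limma adjusted p = 1.27e-04). Its relative SLC2A8 was higher, at 1.74-fold.

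Of 12 tested genes of pyruvate entry into mitochondria 4 were higher (33.3%) and 3 lower (25.0%), near the shares of all genes (median log2 0.018). PDK2, another kinase of pyruvate dehydrogenase, fell to 10.4 ± 0.580 FPKM in normal serum, against 20.3 ± 2.06 FPKM in heat-inactivated serum (limma adjusted p = 1.74e-04). PC, pyruvate carboxylase, averaged 26.1 ± 0.318 FPKM in normal serum and 13.3 ± 1.01 FPKM in heat-inactivated serum (1.96-fold, adjusted p = 6.01e-05), and PDP1, a phosphatase that reactivates pyruvate dehydrogenase, rose 1.71-fold (adjusted p = 2.95e-04).

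Of 18 citric acid cycle genes 7 were higher (38.9%) and 1 lower (5.6%), with a median log2 of 0.10. FH, fumarase, averaged 92.4 ± 2.63 FPKM in normal serum and 44.9 ± 1.06 FPKM in heat-inactivated serum (2.06-fold, limma adjusted p = 1.27e-05). IDH3A, of isocitrate dehydrogenase, rose 1.77-fold. SDHC, of succinate dehydrogenase, rose 1.32-fold, a call lost under 2 of 18 alternatives, among them rescaling to the same total (limma adjusted p = 0.0627). Of 7 pentose phosphate genes 4 were higher (57.1%) and 0 lower (median log2 0.23). RPIA, which interconverts pentose phosphates, rose 1.78-fold (limma adjusted p = 9.15e-05). PGD rose 1.19-fold, a call lost under 2 of 18 alternatives, among them rescaling to the same total (limma adjusted p = 0.378).

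**Figure D5:**
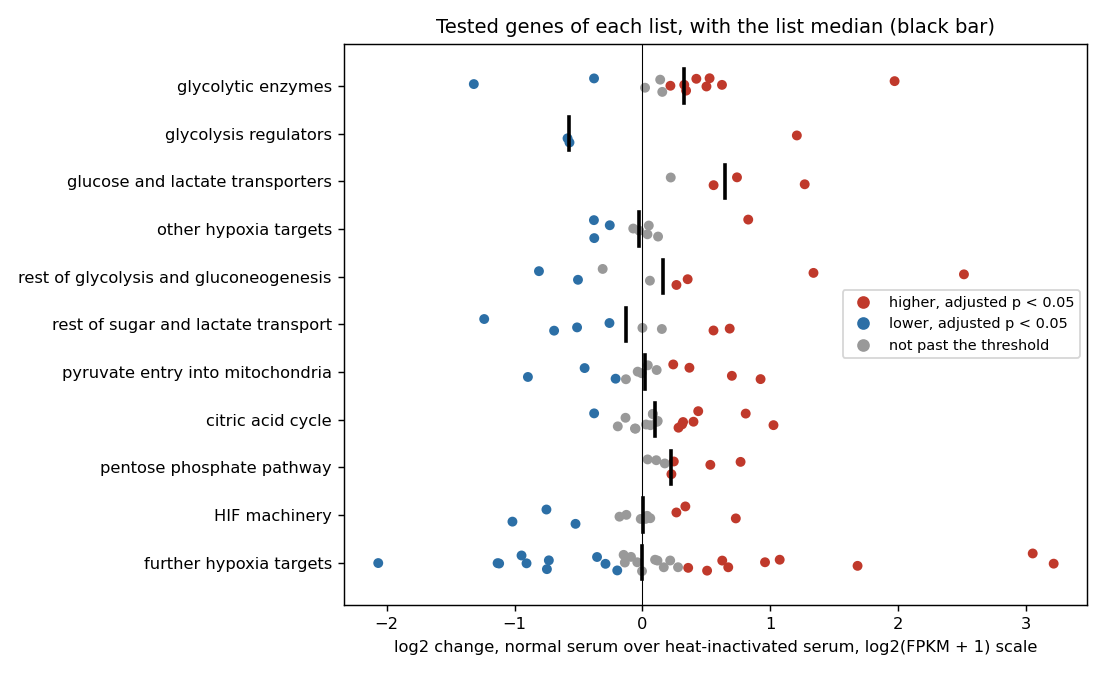
Log2 change (normal serum over heat-inactivated serum, log2(FPKM + 1) scale) of every tested gene in the 4 member lists other than HIF1A and in 7 neighbouring lists, with the list median as a black bar. The median is 0.33 for glycolytic enzymes and -0.024 for the other hypoxia targets.

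Of 12 tested genes of the HIF machinery 3 were higher (25.0%) and 3 lower (25.0%), near the shares of all genes (median log2 0.0052). ARNT, the constitutive partner of HIF-1α, had 11.2, 10.4 and 14.2 FPKM in normal serum, against 24.3, 25.7 and 25.1 FPKM in heat-inactivated serum, a fall to 0.478 of its level (log2 -1.02, limma adjusted p = 2.70e-04). TCEB1 and TCEB2, the elongins of the ubiquitin ligase that removes HIF-1α, rose 1.66-fold and 1.20-fold, and TCEB2 lost its call on rescaling to the same total (limma adjusted p = 0.284) and was at -0.047 under quantile normalization. VHL, the substrate receptor of that ligase, and EPAS1, the HIF-2α gene, were chosen after their values were seen. VHL fell to 17.3 ± 2.36 FPKM in normal serum, against 30.1 ± 6.78 FPKM in heat-inactivated serum (limma adjusted p = 0.00802), a call lost with replicates 2 and 3 alone (0.0504). EPAS1 averaged 53.0 ± 2.58 FPKM in normal serum and 57.9 ± 1.49 FPKM in heat-inactivated serum and did not pass (adjusted p = 0.113).

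A further list of 29 tested hypoxia targets had 9 higher (31.0%), 10 lower (34.5%) and 10 that did not pass (median log2 -0.0035). These shares were near those of all genes tested, 27.8% higher and 26.1% lower. ANGPTL4, a secreted inhibitor of lipoprotein lipase, averaged 123 ± 0.704 FPKM in normal serum and 12.4 ± 0.580 FPKM in heat-inactivated serum (log2 3.21, limma adjusted p = 1.38e-07). VEGFA, the vascular growth factor, had a log2 change of 1.68. ADM, the vasodilator peptide adrenomedullin and another known HIF target, was chosen after its values were seen: it had 16.4, 21.6 and 23.1 FPKM in normal serum, against 95.3, 77.8 and 90.4 FPKM in heat-inactivated serum, a fall to 0.232 of its level (log2 -2.07, limma adjusted p = 3.12e-05).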

How the data were processed

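The submitters' processing notes name TopHat2 2.0.7, Cufflinks 2.1.1 and Cuffdiff 2.1.1, and no source used here gives the genome build. The authors deposited FPKM per transcript for each library, and their own comparison with its log2 fold change, its p-value and its q-value for each transcript. Gene identifiers lacking a symbol numbered 7008, and a table of gene names supplied 256 of them. Transcripts were summed per symbol, so isoforms, overlapping genes and close copies are not told apart. Genes averaging 1 FPKM or more were tested as log2(FPKM + 1) with limma 3.58.1 in R 4.3.3 (trended empirical Bayes, Benjamini-Hochberg over 11818 genes, threshold 0.05), which understates folds of low genes. Folds are ratios of mean FPKM. The script was tested on simulated data. Low values counted as whole fragments within a tolerance of 0.1 fragments, which held for 100% in replicates 2 and 3 of both treatments, but for 47.0% in normal serum replicate 1 and 52.7% in heat-inactivated serum replicate 1. The members and lists were chosen with earlier results of these data known. All members are named, and of each neighbouring list up to 3 genes with the smallest adjusted p. A few genes meeting that rule are not reported here. The share of ENO2 among enolases was not run because ENO1 is not analysed here. Alternatives varied pseudocount, filter, scaling, variance model, transcripts and libraries, and the removal of a length trend was added after seeing the data.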

Additional observations from a re-analysis of the deposited data

How the results depend on the processing

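Of 21 members called, 14 kept their call under all 18 alternatives and 7 lost it in at least 1. Rescaling to the same total FPKM gave 1952 genes higher (34.7% of calls, against 51.6%), 5 glycolytic enzymes higher and list medians of 0.18 for glycolytic enzymes and -0.17 for other hypoxia targets. It put PFKL at -0.12, EGLN1 at -0.086 and P4HA2 at -0.10. Quantile normalization gave 4 glycolytic enzymes higher, 5 other hypoxia targets lower and medians of 0.084 and -0.21, with GPI at -0.15, PFKL at -0.18, ALDOA at -0.017, SLC16A3 at -0.023, P4HA2 at -0.15 and TCEB2 at -0.047. The glycolytic median was 0.27 with no filter and 0.26 with replicates 2 and 3 only. The median of other hypoxia targets was -0.048 with a mean of at least 5 FPKM, -0.075 with the highest transcript per gene and -0.048 with replicates 2 and 3 only. With the highest transcript P4HA2 was at -0.12. PFKL was at -0.040 with replicates 2 and 3 only and at -0.014 with the length trend removed. Leaving out each library in turn gave 7 to 9 glycolytic enzymes higher, 1 to 3 other hypoxia targets lower, glycolytic medians from 0.26 to 0.36 and other-target medians from -0.081 to 0.042. The range was -0.018 to 0.064 for PFKL, negative without replicate 1 of either treatment, and -0.0076 to 0.11 for EGLN1, negative without heat-inactivated serum replicate 2 or normal serum replicate 1. It was -0.081 to 0.042 for NDRG1 and -0.13 to 0.013 for P4HA1, both positive without heat-inactivated serum replicate 3, and -0.021 to 0.087 for P4HA2, negative without heat-inactivated serum replicate 1. Leaving out a library also moved log2 differences that did not pass, to between 0.023 and 0.21 for ALDOC, 0.0095 and 0.21 for EGLN3, and 0.074 and 0.33 for SLC16A3. The ALDOC share difference ran from -0.234 to 0.0319 percentage points and was positive without normal serum replicate 2. PDK1 also lost its call with no filter (limma adjusted p = 0.0639) and under quantile normalization (0.0937). The cause of these shifts was not tested. Deviations from the group mean correlated at 0.193 between the replicate 1 libraries, the highest of all pairs, so these 2 libraries shared deviations. Replicates 2 and 3 did not pair by number, at 0.0333 and 0.00593. Normal serum replicate 2 correlated better with heat-inactivated serum replicate 3 (0.106), and normal serum replicate 3 with heat-inactivated serum replicate 2 (0.0861). What the replicate 1 libraries shared was not tested. With the replicate block 3525 genes were higher and 3250 lower, 8 glycolytic enzymes higher and 2 lower, and 1 other hypoxia target higher and 3 lower. PDK1 then lost its call (limma adjusted p = 0.0617) and SLC16A3 gained one. Between 24 and 69 fragments lay behind the PDK1 values and between 66 and 116 behind those of EGLN3, which limits both.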
